A study of Homo sapiens with 4 samples.

Results

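The plasminogen activation system was followed through 7 genes, PLAU, PLAT, PLAUR, S100A10, ANXA2, SERPINB2 and SERPINE2, chosen by gene name from the 60623 genes of the deposited table. Each name matched 1 gene, and all 7 passed the filter on low counts and were tested. All RNA came from T24, a long-used human bladder carcinoma line. In 2 libraries the cells overexpressed the microRNA miR-146a-5p. The study's description says that it was given as a mimic (a synthetic small RNA that stands in for the mature microRNA). The other 2 libraries are of cells transfected with a scramble control. Both groups are the same cell line, and separate cultures within a group are not stated. The p-values therefore reflect library-to-library spread alone, and that spread may be technical.

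Plasminogen is an inactive protease precursor that tissue-type or urokinase-type plasminogen activator cuts into plasmin, which digests fibrin and other matrix proteins. Urokinase acts mostly at the cell surface, held by its receptor, while annexin A2 and its partner S100A10 hold plasminogen and tissue-type activator beside it. Serpins, inhibitors that trap a protease in a dead-end complex, switch the activators off. In bladder cancer the urokinase branch is best known for its link to invasion.

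A microRNA pairs with a target through its seed, bases 2 to 8. The mature sequence of miR-146a-5p (RefSeq, GRCh38.p14, chromosome 5, from 160485372 to 160485393, plus strand) is shown with the seed in capitals, above the matches found in 3' UTRs, with the match in capitals and flanking bases in lower case. For each gene the 3' UTR is that of its longest coding transcript in GENCODE 29 (GRCh38), and sites were searched on the transcript strand as AGTTCTCA, AGTTCTC or GTTCTCA. The sites of IRAK1, a textbook target of this microRNA, are printed for comparison with the single site found among the 7 genes.
hsa-miR-146a-5p: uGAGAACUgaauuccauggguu
SERPINB2: tgcctttaattGTTCTCAtaatgaagaat
IRAK1 upstream site: ccggaagtcaaAGTTCTCAtggtcagaagt
IRAK1 downstream site: tcatggtcagaAGTTCTCAtggtgcacgag

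SERPINB2 held the only match among the 7 genes, at chromosome 18 from 63903704 to 63903710 on the plus strand, 399 bases into a 3' UTR of 574 bases. It is a match of 7 bases, pairing with seed positions 2 to 7 and followed by A, whereas both IRAK1 sites, on the minus strand of chromosome X from 154011812 to 154011819 and from 154011796 to 154011803, are matches of 8 bases. Both coding transcripts of SERPINB2 that have a 3' UTR in the annotation carried a match. For IRAK1, 3 of 6 such transcripts carried one. None was found in any annotated coding transcript of PLAU, PLAT, PLAUR, S100A10, ANXA2 or SERPINE2. Of the 12345 tested genes with a 3' UTR, 21.0% held a match of any kind and 11.01% one of the kind in SERPINB2. Among the 7 genes, 1 (14.3%) held a match of any kind. Their 3' UTRs were 248 to 931 bases long, against a median of 1327 bases over tested genes, and these shares do not allow for length. A match of letters is a description and not a shown binding site.

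Library totals were between 20290055 and 22774090 estimated counts. IRAK1, which checks the labels, had 64.0 and 49.8 TPM in miR-146a-5p cells against 273 and 314 TPM in scramble cells (TPM is scaled by gene length as well as by library, so levels can be compared between genes). MIR3142HG, the host transcript of the microRNA's gene, had 5.06 and 5.89 TPM in miR-146a-5p cells against 0.68 and 0.22 TPM in scramble cells. A mimic is not made from this transcript, so MIR3142HG does not check a mimic, and the cause of its difference was not tested. The scramble pair was the less alike: 23.5% of the 14810 tested genes differed more than 2-fold within it, against 2.71% within the miR-146a-5p pair. Of 11 bladder urothelial markers, KRT7, KRT8 and KRT18 were at or above 610 TPM in every library, while KRT5, UPK3A, UPK2, UPK1B, TP63 and GATA3 were below 1 TPM in all 4. KRT19 had 17.4 and 15.5 TPM in miR-146a-5p cells against 35.6 and 41.0 TPM in scramble cells, and PPARG 23.6 and 22.5 TPM in miR-146a-5p cells against 33.6 and 33.8 TPM in scramble cells. KRT18 had 662 and 610 TPM in miR-146a-5p cells against 762 and 1101 TPM in scramble cells. KRT18, KRT19 and PPARG were thus lower in miR-146a-5p cells without overlap, while KRT7 and KRT8 overlapped. By CPM (counts scaled by TMM-normalised library total and not by gene length), 17.9% of all tested genes lay below both scramble libraries. The part of these markers in the results was not tested. Markers of leukocytes, endothelium and fibroblasts summed to at most 14.4, 0.32 and 1.22 TPM in miR-146a-5p cells and to at most 13.8, 0.26 and 1.46 TPM in scramble cells, and CD68 made up most of the leukocyte sum in every library. In bulk RNA, fewer cells that express a gene and less of its RNA per cell cannot be told apart.

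The 7 genes differed widely in level, and their order was nearly the same in the 4 libraries. ANXA2 and S100A10 together made up 94.0% ± 0.0625 of the summed TPM of the 7 genes in miR-146a-5p cells and 93.6% ± 0.718 in scramble cells (SD, n = 2 each). PLAU came next, then PLAUR and PLAT, then SERPINE2, and SERPINB2 was lowest in every library. PLAT and PLAUR were the only neighbours to change places, PLAT being above PLAUR in miR-146a-5p replicate 1 and below it in the other 3 libraries. Plasminogen itself (PLG), made chiefly by the liver, had 0 and 1 counts in miR-146a-5p cells and 0 and 0 counts in scramble cells, and the exact 95% Poisson interval of a count of 0 reaches 3.69 counts. The T24 libraries thus held RNA of activators, receptors and inhibitors and next to none of their substrate.

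**Figure D1:**
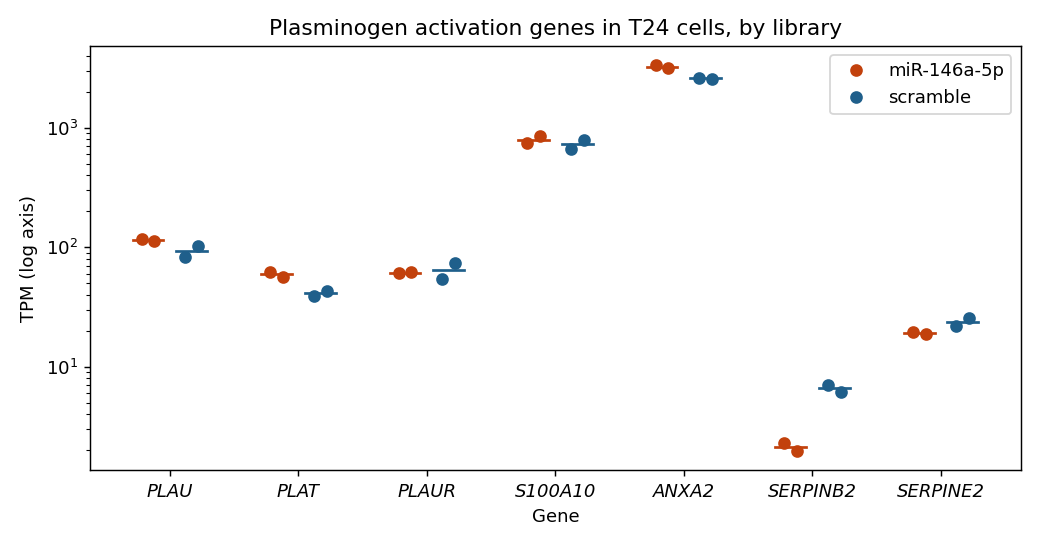
TPM of the 7 genes on a log axis, 1 point per library, with the mean of each group as a line (n = 2 each, miR-146a-5p left of scramble). SERPINB2, at 2.31 and 1.98 TPM in miR-146a-5p cells against 7.04 and 6.20 TPM in scramble cells, is the gene whose groups stand farthest apart.

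Of the 7 genes, the one called by a test on all 4 libraries, by DESeq2 and not by edgeR, was an inhibitor. SERPINB2 (ENSG00000197632, chromosome 18 from 63871692 to 63903890 in GRCh38, plus strand) encodes plasminogen activator inhibitor 2, a serpin of clade B that inhibits urokinase and is largely kept inside the cell. Its RNA was at 2.31 and 1.98 TPM in miR-146a-5p replicates 1 and 2, against 7.04 and 6.20 TPM in scramble replicates 1 and 2. The groups did not overlap, and the highest miR-146a-5p library was far below the lowest scramble library. The estimated counts behind these levels were 69 and 55 in miR-146a-5p cells, with exact 95% Poisson intervals of 53.7 to 87.3 and 41.4 to 71.6, and 206 and 213 in scramble cells, with intervals of 179 to 236 and 185 to 244, which cover counting error only.

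SERPINB2 fell 3.18-fold by DESeq2 (log2 fold change -1.67 ± 0.41 SE, adjusted p = 0.0169 over 16044 genes). By edgeR's quasi-likelihood test, the main test, the log2 fold change was -1.65 ± 0.25 (SE), with an unadjusted p of 0.00215 and an adjusted p of 0.959, which does not pass. DESeq2 called 0.324% of genes (52 of 16044) and 0.0499% lower (8 of 16044), and edgeR called 0% (0 of 14810), with 3.71% at an unadjusted p under 0.05. The authors' deposited table gives SERPINB2 a log2 fold change of -1.67 and an adjusted p of 0.0172. DESeq2 no longer called SERPINB2 when miR-146a-5p replicate 1 or replicate 2 was left out (adjusted p = 1.00 for each, log2 fold changes -1.80 and -1.55). Set against scramble replicate 2 alone, the edgeR value was -1.66, and against scramble replicate 1 alone it was -1.62.

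The scramble libraries, far apart for many genes, were alike for SERPINB2. Scramble replicate 2 differed from scramble replicate 1 by 0.02 on the log2 CPM scale, and miR-146a-5p replicate 2 from replicate 1 by -0.25. CPM is counts scaled by TMM-normalised library total but not by length. SERPINB2 transcripts have a GC content of 41.0%, which puts the gene among the 2936 tested genes of lowest GC (27.8% to 41.1%). Over those 2936 genes the median difference was 0.08 between the miR-146a-5p libraries and -1.55 between the scramble libraries. SERPINB2 lies at the upper edge of that range. Over the 2936 tested genes next in GC (41.1% to 45.7%) the median difference between the scramble libraries was -0.40. With trends in GC content and length removed, the edgeR log2 fold change of SERPINB2 was -2.09 (adjusted p = 0.296), and the part of GC content in the result was not tested further.

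SERPINE2 (ENSG00000135919, chromosome 2 from 223975112 to 224039319 in GRCh38, minus strand) encodes protease nexin 1, a secreted serpin that inhibits thrombin, urokinase and tissue-type activator. It was at 19.4 and 18.8 TPM in miR-146a-5p cells, against 22.1 and 25.4 TPM in scramble cells. Both miR-146a-5p libraries lay below both scramble libraries, by a small margin. The edgeR log2 fold change was -0.30 ± 0.22 (SE, adjusted p = 0.970), and DESeq2 gave -0.32 ± 0.33 (SE, adjusted p = 1.00), so SERPINE2 passed neither test. Without scramble replicate 1, the edgeR value was -0.46, and without scramble replicate 2 it was -0.12.

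**Figure D2:**
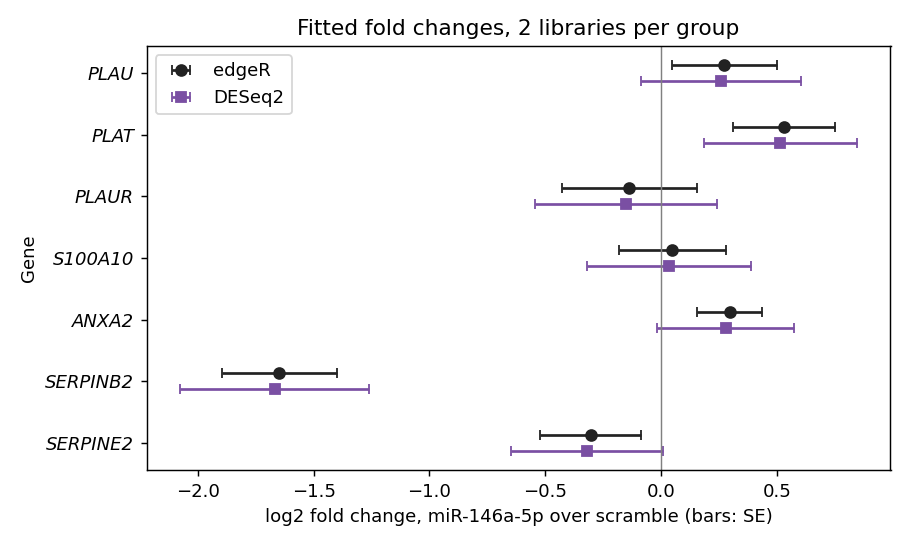
Fitted log2 fold changes of miR-146a-5p over scramble with standard errors, by edgeR (circles) and DESeq2 (squares), 2 libraries per group. SERPINB2 stands at -1.65 and -1.67, and the other 6 genes lie between -0.32 and 0.53.

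Both activators had higher levels in miR-146a-5p cells, and neither passed a test on all 4 libraries. PLAU (ENSG00000122861, chromosome 10 from 73909177 to 73917497 in GRCh38, plus strand) encodes urokinase, the activator that tumour cells use at their surface. It had 117 and 113 TPM in miR-146a-5p replicates 1 and 2, against 82.9 and 103 TPM in scramble replicates 1 and 2. Both miR-146a-5p libraries were above both scramble libraries, but scramble replicate 2 lay nearer to them than to scramble replicate 1. The edgeR log2 fold change was 0.27 ± 0.23 (SE, adjusted p = 0.970). It was 0.54 without scramble replicate 2 and 0.06 without scramble replicate 1. PLAU shares its locus with C10orf55 on the opposite strand, and the labels and file headers do not state whether counting used strand. C10orf55 had at most 49.5 counts in any library where PLAU had at least 3081 counts, and how reads from the shared stretch were assigned was not tested.

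PLAT (ENSG00000104368, chromosome 8 from 42175233 to 42207724 in GRCh38, minus strand) encodes tissue-type activator, the clot-dissolving enzyme that works best when bound to fibrin or to annexin A2. It had 62.3 and 56.9 TPM in miR-146a-5p cells, against 39.3 and 42.9 TPM in scramble cells, and the groups did not overlap. Its edgeR log2 fold change of 0.53 ± 0.22 (SE) was the highest of the 7 genes and did not pass (adjusted p = 0.970). DESeq2 gave 0.52 ± 0.33 (SE, adjusted p = 1.00). PLAT was called higher when either scramble library was left out, at 0.36 without scramble replicate 1 (edgeR adjusted p = 9.05e-05) and at 0.74 without scramble replicate 2 (edgeR adjusted p = 1.56e-12). These fits assume that a lone scramble library varies like the miR-146a-5p pair, and they call 56.8% and 22.2% of all tested genes, so a call there says little about PLAT in particular.

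PLAUR (ENSG00000011422, chromosome 19 from 43646095 to 43670547 in GRCh38, minus strand) encodes the urokinase receptor, a protein anchored in the outer membrane by a lipid. It had 60.5 and 62.0 TPM in miR-146a-5p cells, between the 54.6 and 73.9 TPM of scramble replicates 1 and 2. The groups overlapped, and the direction depended on the scramble library. The edgeR log2 fold change was -0.14 ± 0.29 (SE, adjusted p = 0.971). It was -0.43 without scramble replicate 1 and 0.24 without scramble replicate 2. PLAU, PLAUR, PLAT and S100A10 are among the 2936 tested genes with a GC content of 51.6% to 58.1%. Over those, the median log2 CPM difference of scramble replicate 2 from replicate 1 was 0.36. This difference was 0.47 for PLAU, 0.66 for PLAUR, 0.37 for PLAT and 0.49 for S100A10. For SERPINE2 and ANXA2 it was 0.32 and 0.20, beside medians of -0.40 and 0.15 in their GC ranges. The part of GC content in these differences was not tested.

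ANXA2 (ENSG00000182718, chromosome 15 from 60347134 to 60402883 in GRCh38, minus strand) encodes annexin A2, a calcium-dependent membrane-binding protein, and was by far the most abundant of the 7. It had 3336 and 3155 TPM in miR-146a-5p cells, against 2610 and 2578 TPM in scramble cells. The groups did not overlap, and within scramble the libraries were close on this scale. The edgeR log2 fold change of 0.30 ± 0.14 (SE) had an unadjusted p of 0.0952 and an adjusted p of 0.970. Its processed pseudogenes ANXA2P1, ANXA2P2 and ANXA2P3 had at most 2.30 counts in any library, but ANXA2 has fractional counts, how reads were divided among similar genes is not stated, and its level is uncertain to that extent.

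S100A10 (ENSG00000197747, chromosome 1 from 151982915 to 151994390 in GRCh38, minus strand) encodes p11, the small partner that joins annexin A2 molecules in pairs and binds plasminogen. It had 744 and 845 TPM in miR-146a-5p cells, against 663 and 791 TPM in scramble cells. The groups overlapped, with 1 miR-146a-5p library between the scramble libraries. The edgeR log2 fold change was 0.05 ± 0.23 (SE, adjusted p = 0.981), and its sign turned to -0.18 without scramble replicate 1 and to -0.03 without miR-146a-5p replicate 2.

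**Figure D3:**
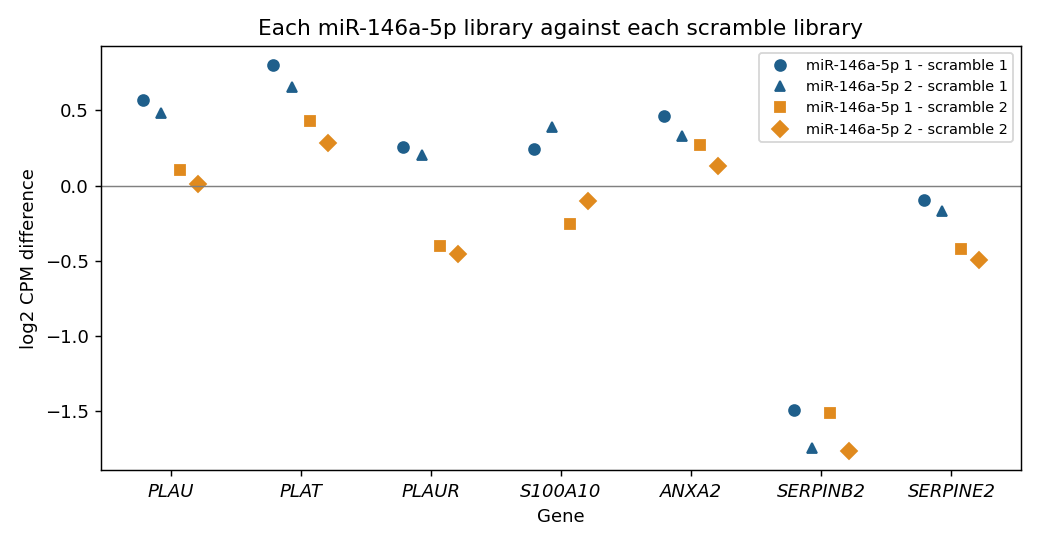
Difference in log2 CPM between each miR-146a-5p library and each scramble library (4 points per gene). All 4 points of SERPINB2 lie between -1.76 and -1.49, while PLAUR and S100A10 have points on both sides of 0 that split by scramble library.

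Of the 7 genes, 3 (PLAU, PLAT and ANXA2) lay above both scramble libraries in both miR-146a-5p libraries, 2 (SERPINB2 and SERPINE2) lay below both, and 2 overlapped. Among all tested genes 18.0% lay above both and 17.9% below both. The median edgeR log2 fold change of the 7 genes was 0.05, beside 0.00 over all tested genes.

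How many of the 7 were called turned on which library was left out, and so did the share of all genes called. Without scramble replicate 1, edgeR called 4 of the 7 and 56.8% of all tested genes, and DESeq2 called 5 of the 7 and 38.1%. Without scramble replicate 2, edgeR called 5 of the 7 and 22.2%, and DESeq2 called 5 of the 7 and 9.64%. SERPINB2 and PLAT were called in the same direction in all 4 of these fits. Without miR-146a-5p replicate 1, edgeR and DESeq2 called 0 of the 7, with 0.0810% and 0.00807% of all genes called, and without miR-146a-5p replicate 2 again 0 of the 7, with 0.0540% and 0.00809%.

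Ratios within a library put the genes beside each other without reference to depth, and are given as a description with no test. SERPINB2 per PLAU was 0.0197 and 0.0175 in miR-146a-5p cells, against 0.0849 and 0.0605 in scramble cells. SERPINE2 per PLAU was 0.165 and 0.166 in miR-146a-5p cells, against 0.266 and 0.248 in scramble cells. Neither ratio overlapped between groups, which follows from the levels above, each inhibitor being lower and the activator higher, and adds no evidence to them. PLAU per PLAUR was 1.94 and 1.83 in miR-146a-5p cells, against 1.52 and 1.39 in scramble cells. The ratio of PLAU to PLAT was 1.89 and 1.99 in miR-146a-5p cells, against 2.11 and 2.39 in scramble cells. S100A10 per ANXA2 was 0.223 and 0.268 in miR-146a-5p cells, against 0.254 and 0.307 in scramble cells. It was the one ratio of these whose groups overlapped, and how often ratios of other gene pairs overlap was not tested.

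**Figure D4:**
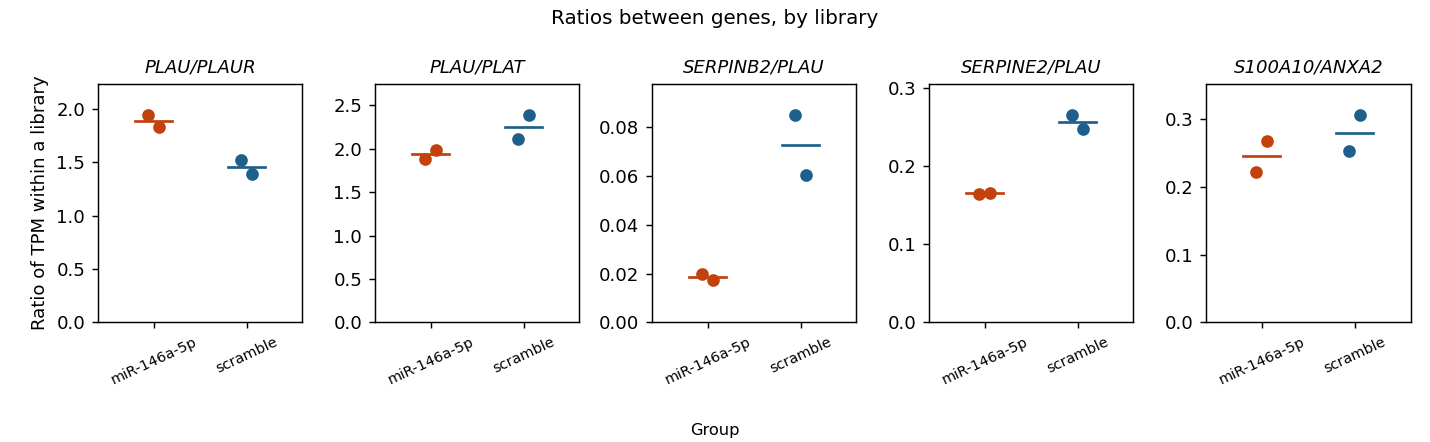
Ratios of TPM between pairs of the 7 genes, 1 point per library and a line at the group mean (n = 2 each, axes from 0). SERPINB2 per PLAU is 0.0175 to 0.0197 in miR-146a-5p cells and 0.0605 to 0.0849 in scramble cells, and S100A10 per ANXA2 overlaps.

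A wider list held 34 other genes of the plasmin system, of which 22 were tested, and neither edgeR nor DESeq2 called any. Their median edgeR log2 fold change was 0.13, beside 0.00 over all tested genes. Positive values were found for 13 and negative for 9, with 8 above both scramble libraries and 5 below both by CPM, where 18.0% and 17.9% of all tested genes lay above and below. At an unadjusted p under 0.05 edgeR had 1 higher and 1 lower, beside 3.71% of all tested genes in either direction. The higher one was ITGB3, the beta 3 integrin chain of the vitronectin receptor, which had 2.85 and 2.79 TPM in miR-146a-5p cells, against 1.51 and 1.39 TPM in scramble cells (log2 fold change 0.91 ± 0.23 SE, edgeR adjusted p = 0.970). The lower one was THBD, thrombomodulin, a thrombin receptor, with 1.34 and 1.17 TPM in miR-146a-5p cells, against 2.14 and 2.42 TPM in scramble cells (log2 fold change -0.90 ± 0.27 SE, edgeR adjusted p = 0.970).

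SERPINI1, neuroserpin, an inhibitor of tissue-type activator, had the largest fold change of the list (1.70 ± 0.70 SE, edgeR adjusted p = 0.970). It had 1.57 and 3.67 TPM in miR-146a-5p cells and 0.92 and 0.64 TPM in scramble cells. These levels rest on few counts, 41 and 65 in miR-146a-5p cells and 27 and 8 in scramble cells. In log2 CPM, miR-146a-5p replicates 1 and 2 were above scramble replicate 1 by 0.63 and 1.33. Above scramble replicate 2 they were by 2.18 and 2.88. SERPINI1, ITGB1, ITGAV, HMGB1 and PLGRKT, all on the list, are among the 2936 tested genes of lowest GC. Over those, the median log2 CPM difference of scramble replicate 2 from replicate 1 was -1.55. It was -1.55 for SERPINI1, -1.83 for ITGB1, -2.50 for ITGAV, -0.47 for HMGB1 and 0.30 for PLGRKT. The part of GC content in these differences was not tested.

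The most abundant of these genes included further surface binders of plasminogen. ENO1, an enolase that also binds plasminogen at the surface, averaged 3128 ± 203 TPM in miR-146a-5p cells and 3301 ± 450 TPM in scramble cells, and KRT8, a keratin with the same reported role, 921 ± 49.7 TPM in miR-146a-5p cells and 1001 ± 106 TPM in scramble cells (SD, n = 2 each). S100A11, a relative of S100A10 that binds annexins, averaged 983 ± 5.42 TPM in miR-146a-5p cells and 809 ± 56.7 TPM in scramble cells. By CPM its groups overlapped, at 248 and 240 CPM in miR-146a-5p cells, against 183 and 243 CPM in scramble cells. HMGB1, a chromatin protein that can be released from cells, averaged 1256 ± 24.8 TPM in miR-146a-5p cells and 984 ± 246 TPM in scramble cells. ITGB1, the beta 1 integrin chain, had 608 and 655 TPM in miR-146a-5p cells, against 553 and 138 TPM in scramble cells, so its difference lay almost wholly in scramble replicate 2. The 12 genes that were not tested had at most 10 counts in any library, and 5 of them, KLKB1, HPN, SERPING1, FPR1 and FPR2, had 0 in all 4.

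**Figure D5:**
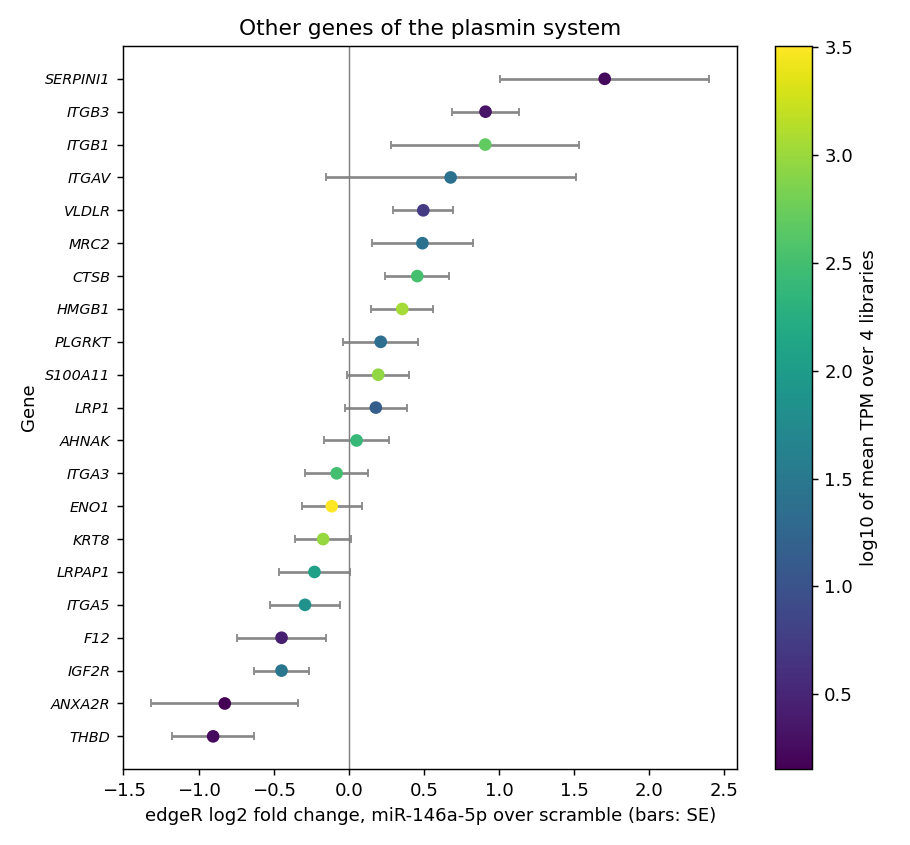
edgeR log2 fold changes (miR-146a-5p over scramble, bars SE) of 21 of the 22 tested genes on the wider list of the plasmin system, coloured by mean TPM on a log10 scale. Values run from -0.90 for THBD to 1.70 for SERPINI1, and neither edgeR nor DESeq2 called any of them.

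SERPINB2 belongs to clade B of the serpins, and its 12 relatives were listed to set it beside its family. Of the 12, 5 were tested and 7 were near or at 0. By edgeR and DESeq2 0 of the 5 were called, where edgeR called 0% and DESeq2 0.324% of all genes. A positive edgeR log2 fold change was found for 4 of the 5, beside 7385 of 14810 tested genes. The median was 0.19, beside -0.001 over all tested genes. SERPINB6, an intracellular inhibitor of trypsin-like proteases, had 150 and 158 TPM in miR-146a-5p cells, against 138 and 151 TPM in scramble cells. SERPINB1, an inhibitor of neutrophil proteases, had 38.8 and 40.7 TPM in miR-146a-5p cells, against 37.7 and 39.3 TPM in scramble cells. SERPINB8 had 53.8 and 59.8 TPM in miR-146a-5p cells, against 52.4 and 37.0 TPM in scramble cells, and it also holds a match of 7 bases to the seed in its 3' UTR. SERPINB5, known as maspin, had 15.1 and 16.9 TPM in miR-146a-5p cells, against 12.6 and 8.56 TPM in scramble cells (edgeR log2 fold change 0.57 ± 0.24 SE, adjusted p = 0.970). SERPINB10, whose annotated locus overlaps that of SERPINB2 on the same strand, had 0 counts in all 4 libraries.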

How the data were processed

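The deposited table gives, per gene, an estimated count and a TPM value for each library, both made by the authors, and the authors' own comparison as a fold ratio, a log2 fold change and p-values from DESeq2, per the file headers. Per the submitters' processing notes, the build is hg19 and the tools are HISAT2 2.0.1, cutadapt 1.9.1, DESeq2 and HTSeq 0.6.1, with no role given. Of counts above 0, 31.9% were not whole numbers. Which tool made them, and the annotation release, are not given in the sources used here. Estimated counts were rounded to whole numbers. Genes passing filterByExpr (minimum count 10, minimum total 15) were tested with edgeR 4.0.16 in R 4.3.3 (quasi-likelihood, TMM, group only, two-sided, Benjamini-Hochberg over all 14810 genes, threshold 0.05). Standard errors were derived from the F statistic. DESeq2 1.42.0 on the same rounded counts was the alternative test. Both were tested on simulated data. TPM was used for levels and ratios, with no test. GC content, coordinates and 3' UTRs come from GENCODE release 29 (GRCh38), matched by gene identifier, and no coordinate of hg19 was used. The microRNA sequence is from RefSeq.

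The 7 genes and the lists of 34 and 12 genes were chosen with earlier results of these data known. Named beyond the 7 were IRAK1 and MIR3142HG, both planned as checks, and genes called by either tool. From the lists came the 6 and 3 most abundant and the 2 of smallest edgeR p of each list. The rule also took the 3 genes nearest in profile to SERPINB2 and PLAU. Genes named outside that rule were chosen after their values were seen. They were PLG, CTSB, IGF2R, ITGAV, PLGRKT, C10orf55, SERPINI1, SERPINB10, the annexin pseudogenes and the genes at 0. In the list of 34, 1 gene is counted and not reported here. Alternatives were DESeq2, its size factors, no filter, the replicate number as a block, each library left out, and offsets for GC content and length (natural splines with 5 degrees of freedom, 14679 genes with GC content). DESeq2 with libraries left out or with the block was added after the data were seen.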

Additional observations from a re-analysis of the deposited data

How the results depend on the processing

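By edgeR with all 4 libraries 0 of the 7 genes were called. DESeq2 called 1, and 52 over all genes where edgeR called 0. DESeq2's size factors, no filter, and the GC and length offsets left every edgeR count at 0. Leaving out each library in turn, edgeR called 0 to 5 of the 7 genes, 0 to 15 of the other plasmin-system genes, 0 to 2 clade B serpins and 8 to 8413 of all genes. DESeq2 called 0 to 5, 0 to 12, 0 to 2 and 2 to 5349. Without scramble replicate 2 edgeR called PLAU, PLAT, S100A10 and ANXA2 higher and SERPINB2 lower, and without scramble replicate 1 it called PLAT higher and PLAUR, SERPINB2 and SERPINE2 lower. SERPINB2 was negative in every alternative run with edgeR, from -2.09 to -1.52, as PLAU, PLAT and ANXA2 were positive and SERPINE2 negative. With single libraries left out, PLAUR reversed, at -0.43 to 0.24 by edgeR and -0.43 to 0.23 by DESeq2, and S100A10 reversed, at -0.18 to 0.33 and -0.18 to 0.32. The cause was not tested.

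Same-numbered libraries share only a number, and their deviations from the group means were correlated at -0.145 over the tested genes. With a replicate block, edgeR called 0 of the 7 genes and 5 of all genes, and DESeq2 with the replicate block called 0 of the 7 and 10 of all genes. SERPINB2 there had a log2 fold change of -1.67 and an adjusted p of 1.00. The crossed pairing, added after the data were seen, gave 0 calls by edgeR, with 382 genes at an unadjusted p under 0.05. SERPINB2 rests on few counts, and for it counting error adds to the spread between libraries.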

Other observations

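By the profile over the 4 libraries (log2 CPM centred on its mean, root-mean-square difference), the genes most like SERPINB2 among 9410 with a mean of at least 10 CPM were LINP1 (0.150), TIMM17B (0.213) and HMOX1 (0.224). LINP1, a long noncoding RNA, was at 5.66 and 5.29 CPM in miR-146a-5p cells, against 13.5 and 16.97 CPM in scramble cells. TIMM17B, a subunit of mitochondrial protein import, was at 11.03 and 9.90 CPM in miR-146a-5p cells, against 26.8 and 41.2 CPM in scramble cells. HMOX1, haem oxygenase, was at 16.7 and 16.9 CPM in miR-146a-5p cells, against 36.7 and 49.4 CPM in scramble cells. In each of these 3 genes scramble replicate 2 was above scramble replicate 1, by more than in SERPINB2, which was at 3.23 and 2.69 CPM in miR-146a-5p cells and 9.22 and 9.36 CPM in scramble cells. A likeness over 4 libraries is a description only.

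The profile of PLAU, with scramble replicate 1 low and the other 3 libraries close together, had nearer matches. These were ZNF395 (0.0110), ZFAND2A (0.0151) and GTF2H4 (0.0152). ZNF395 was at 81.7 and 76.3 CPM in miR-146a-5p cells, against 55.4 and 77.1 CPM in scramble cells, and PLAU at 205 and 193 CPM in miR-146a-5p cells, against 138 and 191 CPM in scramble cells.

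Seed matches were also found outside the 7 genes. Of the 22 tested genes among the other plasmin-system genes, 4 held one, each of 7 bases. CTSB, the lysosomal protease cathepsin B that can activate urokinase, was at 397 and 374 TPM in miR-146a-5p cells, against 250 and 304 TPM in scramble cells. IGF2R, a receptor that binds the urokinase receptor, was at 26.1 and 24.6 TPM in miR-146a-5p cells, against 30.1 and 36.5 TPM in scramble cells. The integrin genes ITGAV and ITGB3 were the other 2. ITGAV was at 28.1 and 32.8 TPM in miR-146a-5p cells, against 34.0 and 5.33 TPM in scramble cells, so that its scramble libraries differed more from each other than the groups did. None of the 4 was called by edgeR or DESeq2, and by CPM 1 of them (IGF2R) lay below both scramble libraries, 2 (CTSB and ITGB3) lay above both and 1 (ITGAV) overlapped, where 17.9% of all tested genes lay below and 18.0% above.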
